A study of Mus musculus with 4 samples.

Results

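The 10 genes described here carry out or limit the p53 response, or halt the cell cycle in senescent cells, and were followed across the liver arrays of a mouse study of aging, diabetes and drug treatment. They were Mdm2, Trp53inp1, Cdkn1a, Ccng1, Cdkn2b, Bax, Phlda3, Eda2r, Sesn1 and Sesn2, out of 23462 genes that could be named on the array. They were chosen by their known roles and with the values of these same arrays in view, so their differences are given as a description and none was tested. On the array they were read by 17 probes designed against their RefSeq transcripts.

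The study hybridised labelled RNA of whole liver from male mice to 4 arrays, 1 for each group. The control group was naturally aged mice without drug. The diabetic group was a model of type 2 diabetes in aging mice, the metformin group was that model given metformin, and the combination group was that model given metformin together with astragalus polysaccharide, a plant polysaccharide preparation. Aging was therefore shared by all groups and the diabetes model by 3 of them. The sample titles carry 60 d without saying what it counts from, and the sources used here do not give the strain, the age, how the model was made, or whether an array held RNA of 1 or several mice. With 1 array per group no comparison has a replicate check, no p-value can be given, and a difference between arrays cannot be told apart from a difference between individual livers or between RNA preparations.

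p53 is a transcription factor that is held at a low level by the ubiquitin ligase MDM2 and is released by DNA damage and other stress. It then switches on genes that stop the cell cycle, start apoptosis, repair DNA or adjust metabolism, and among these is Mdm2 itself, which closes a feedback loop. Senescent cells are held out of the cycle mainly by CDK inhibitors, among them the p53 target CDKN1A and, without p53, CDKN2A and CDKN2B of the INK4 family. In the liver these genes have been studied in hepatocytes under toxic, oxidative and metabolic stress.

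The p53 half-site is the 10-base motif to which 1 pair of p53 subunits binds, and full sites hold 2 of them. It was searched in RefSeq promoter windows of 300 bases, from 250 before to 50 after each transcript start, of build GRCm38.p6. The motif reads the same on both strands in its degenerate form, so a match on one strand is a match on the other. Windows were available for 9 of the 10 genes, and 5 of the 9 held a match in at least 1 window. Over all genes with a window 9.55% held one, 2582 of 27025. The matches are shown because these genes are grouped by their response to p53, with 20 bases on each side and the half-site in capitals.
Bax, chr7:45467070-45467119, minus strand: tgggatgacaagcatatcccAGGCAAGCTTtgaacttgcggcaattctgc
Sesn1, chr10:41887246-41887295, plus strand: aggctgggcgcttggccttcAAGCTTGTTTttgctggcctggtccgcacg
Mdm2, chr10:117710915-117710964, minus strand: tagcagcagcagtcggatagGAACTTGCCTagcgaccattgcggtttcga
Ccng1, chr11:40755442-40755491, minus strand: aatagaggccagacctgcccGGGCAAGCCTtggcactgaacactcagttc
Cdkn1a, chr17:29090886-29090957, plus strand: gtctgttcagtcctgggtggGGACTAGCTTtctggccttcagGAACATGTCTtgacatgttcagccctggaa
The half-sites began 201 bases before the start of Bax, 173 before that of Sesn1, 186 before that of Mdm2 and 185 before that of Ccng1. The Cdkn1a window held 2 half-sites, 73 and 51 bases before the start with 12 bases between them, and such a pair within 13 bases was found in 24 of all 32851 windows (0.073%). Cdkn1a and Sesn1 each have 2 windows in the table, and the match lay in 1 of the 2. The windows of Phlda3, Cdkn2b, Sesn2 and Eda2r held no match to these letters, which says nothing of p53 at those genes. Of 19 other p53 pathway genes with a window, 5 held a match. A match is a description of the sequence and not evidence of a bound site.

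Levels are given as the log2 of the scanner software's processed signal minus the log2 of the 75th percentile of the array, so that 0 is a bright probe of that array. The percentile was taken over the same 24363 probes on every array, those above background on all 4. Probes differ in how well they hybridise, so a level is compared between arrays and not between probes. Repeated spots of a probe gave a standard deviation of 0.092 to 0.097 for a log2 difference in the 4 comparisons described here, and different probes of 1 gene gave a median standard deviation of 0.190 to 0.217. Between 2.18% and 5.35% of spots per array carry the scanner software's outlier mark and were left out, and among bright spots the share was 6.31% to 14.5%, which touched Ccng1, Eda2r, Trp53inp1 and Sesn1. The arrays correlated with each other at r = 0.950 to 0.965 over the 24363 probes. Each array had 9 of 10 hepatocyte markers above background. The remaining marker had an outlier spot, Apoa1 on the combination array and Cps1 on the others.

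The largest difference among the 10 genes was that of Phlda3, which encodes a small protein that blocks AKT at the membrane and so limits survival signalling downstream of p53. Its 1 probe read -4.40 in the control, 0.71 with diabetes, 0.78 after metformin and -0.25 after the combination. The processed signal behind these levels was 308 on the control array against 11950, 13860 and 6694 on the others. The control array stood far below the 3 arrays of the diabetes model, which lay within about 1 log2 unit of each other. The diabetic array was 34.6-fold higher than the control, a log2 difference of 5.11 with a software error of 0.20, and Phlda3 ranked 3 from the top among 13475 genes in that comparison. The combination array was 1.94-fold lower than the diabetic (-0.95) and 2.03-fold lower than the metformin array (-1.02). Metformin and diabetic arrays differed by 0.07, a difference whose sign changed with the scaling (-0.04 to 0.32 over the alternatives).

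**Figure D1:**
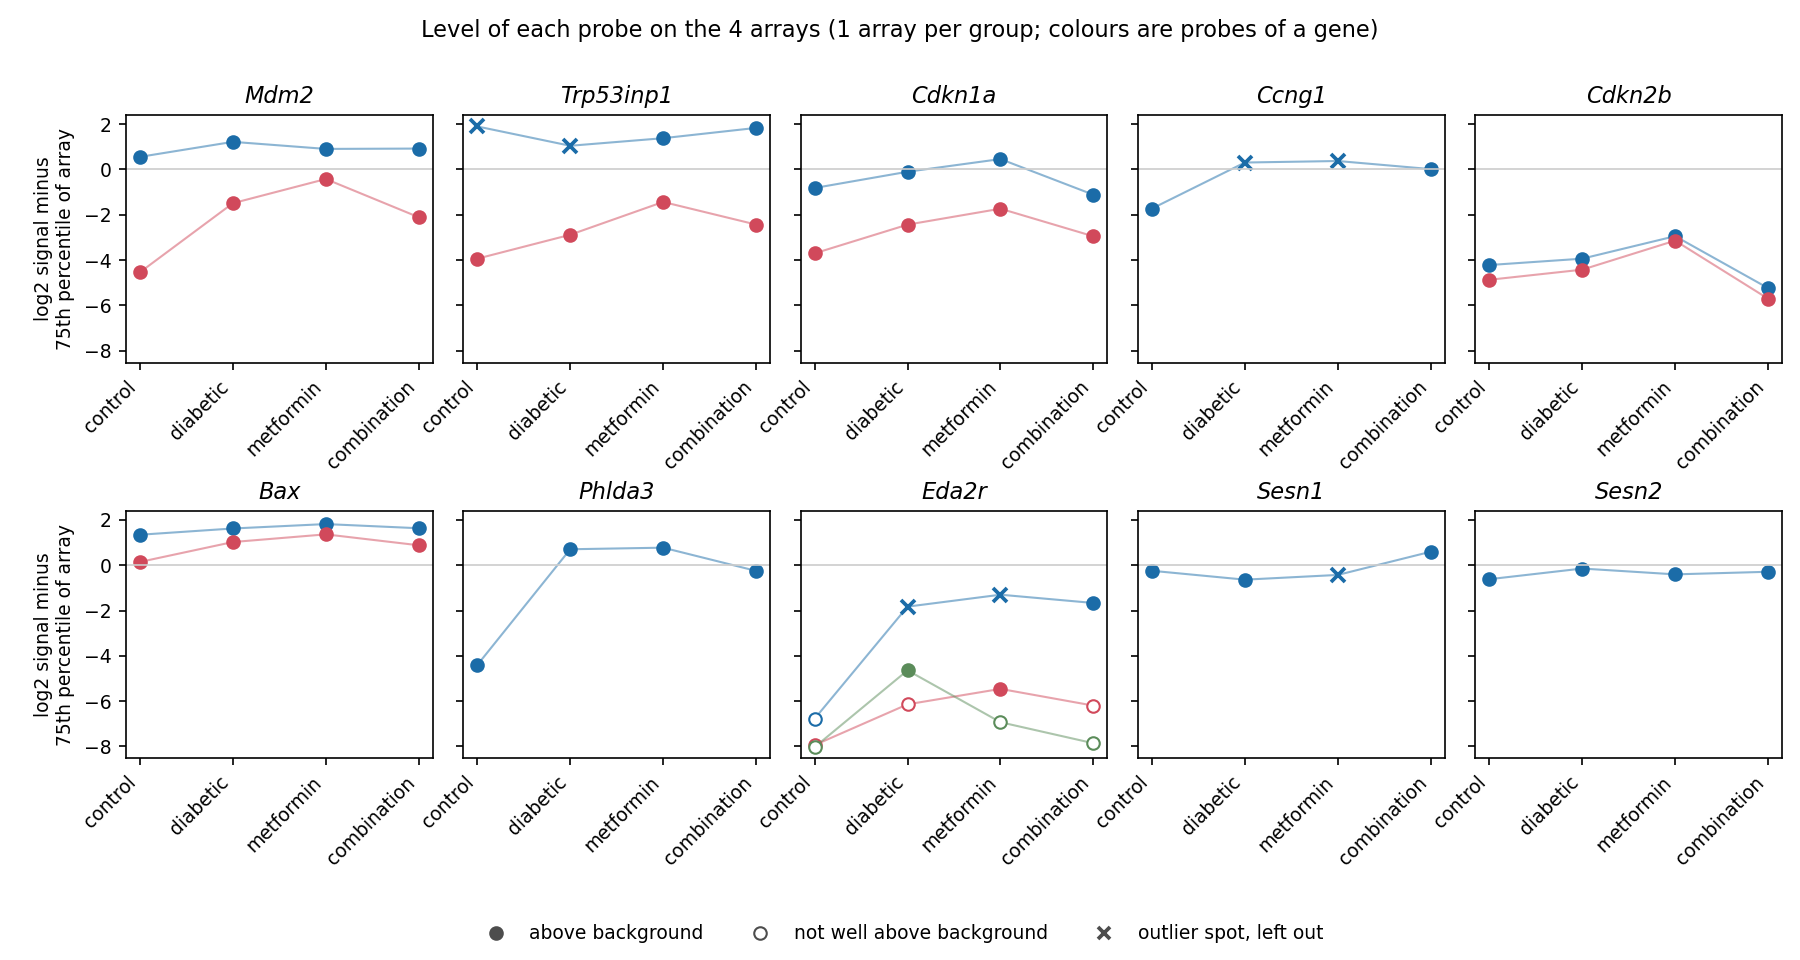
Level of each probe of the 10 genes in control, diabetic, metformin and combination liver, with the log2 processed signal minus the 75th percentile of the array on the vertical axis and 1 colour per probe. Filled circles are above background, open circles are not well above background and crosses are spots with the outlier mark; Phlda3 goes from -4.40 on the control to 0.71 on the diabetic array, while Sesn2 stays between -0.62 and -0.15.

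Mdm2, the negative regulator of p53 and its own target, was higher on all 3 arrays of the diabetes model than on the control by both of its probes, but by very different amounts. The probe with the stronger signal read 0.55, 1.22, 0.91 and 0.92 in control, diabetic, metformin and combination liver. The second probe read -4.54, -1.49, -0.42 and -2.11 in the same order. Both put the control array lowest, while the first put the diabetic array highest and the second the metformin array. From control to diabetic the first probe differed by 0.66 and the second by 3.05, giving a mean of 1.86 (3.62-fold, software error 0.13). The 2-fold call rests on the second probe, since the first alone stays under it. Between metformin and diabetic the probes disagreed in direction, -0.31 and 1.07. The combination array was below the diabetic by both, -0.30 and -0.62. Against the metformin array it was level by the first (0.02) and lower by the second (-1.69).

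Trp53inp1 encodes a stress protein that strengthens p53 activity and takes part in autophagy. Its measured probe read -3.94 in the control, -2.88 with diabetes, -1.43 after metformin and -2.43 after the combination. The order was control, diabetic, combination, metformin from low to high. The diabetic array was 2.08-fold higher than the control (1.06, software error 0.19) and the metformin array 2.73-fold higher than the diabetic (1.45). A second, brighter probe had outlier spots on the control (1.90) and diabetic (1.05) arrays and read 1.38 after metformin and 1.83 after the combination. That probe ran the other way, lower on the diabetic than on the control spot by 0.85 and higher on the combination than on the metformin array by 0.45, where the first probe gave -0.998. The difference between diabetic and control was under 2-fold in 5 of 10 alternatives, at 0.12 with the outlier spots kept and 0.16 with the authors' values. What is read for Trp53inp1 thus depends on which probe is used.

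Among the genes that stop the cell cycle, Cdkn1a was highest on the metformin array. Cdkn1a encodes p21, the CDK inhibitor through which p53 arrests cells. The probe for its NM_007669 transcript read -0.82, -0.10, 0.46 and -1.12 in control, diabetic, metformin and combination liver. The probe for NM_001111099 read -3.70, -2.44, -1.73 and -2.95. Both probes were higher on the diabetic than on the control array and higher still on the metformin array, and both were lower on the combination array than on the diabetic one. The mean difference was 0.99 from control to diabetic (software error 0.12), 1.99-fold and so just short of 2-fold, and it passed 2-fold in 3 of the 10 alternatives. The metformin array was 1.55-fold higher than the diabetic (0.63), and the combination array 2.63-fold lower than the metformin (-1.40; -1.57 and -1.22 by probe). Against the control the combination array was lower by one probe (-0.30) and higher by the other (0.75).

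Cdkn2b encodes p15, an INK4 inhibitor of CDK4 and CDK6 that TGF-beta induces and that does not need p53. Its 2 probes read -4.22, -3.94, -2.95 and -5.24, and -4.87, -4.42, -3.14 and -5.70, in control, diabetic, metformin and combination liver. Both gave the same order, with metformin highest and combination lowest, below the control. On the combination array both lay close to the lowest level that was well above background there, -6.06. The metformin array was 2.20-fold higher than the diabetic (1.14, with 0.99 and 1.28 by probe). The combination array was 2.45-fold lower than the diabetic (-1.29, software error 0.20). The step between the treated arrays was the widest of any of the 10 genes there. The combination array was 5.38-fold lower than the metformin array (-2.43, software error 0.19), at rank 129 from the bottom among 14363 genes. Diabetic and control arrays differed by 0.36. The 2-fold call between metformin and diabetic was lost in 4 alternatives, with a range of 0.81 to 1.39, whereas the difference between the treated arrays lay between -2.71 and -1.68 in all 10.

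Ccng1 encodes cyclin G1, a p53 target that brings a phosphatase to MDM2. Its 1 probe read -1.73 on the control and 0.01 on the combination array, which was 3.35-fold higher (1.74). The spots on the diabetic (0.31) and metformin (0.37) arrays carried the outlier mark, so no difference is given for the 4 comparisons. As they stand, those spots were 2.03 and 2.10 above the control, so every array of the diabetes model read higher than the control.

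Bax encodes the protein that opens the mitochondrial outer membrane in apoptosis. Its probes read 1.35, 1.62, 1.82 and 1.63, and 0.15, 1.03, 1.36 and 0.88, in control, diabetic, metformin and combination liver. The control array was lowest and the metformin array highest by both, with small steps between them. The diabetic array was 1.49-fold higher than the control (0.58; 0.28 and 0.88 by probe), and no comparison of Bax reached 2-fold.

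Eda2r, the receptor of an ectodysplasin form and a death-domain-free TNF receptor family member induced by p53, was near the limit of detection on the control array. Its probe for NM_001161432 was not well above background on the control (-6.77) and read -1.67 on the combination array, at least 17.4-fold higher. That bound sets the combination level against the lowest signal well above background on the control array. The same probe had outlier spots on the diabetic (-1.83) and metformin (-1.30) arrays, 4.95 and 5.47 above the control reading. The other probes were much dimmer and disagreed. One was above background only on the diabetic array (-4.64), at least 2.22-fold higher than the control and at least 2.80-fold higher than the metformin array. The other was above background only on the metformin array (-5.46), at least 1.26-fold higher than the control and at least 1.47-fold higher than the diabetic.

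The sestrins bind leucine, hold back mTORC1 and support antioxidant defence, and neither was 2-fold apart between control and diabetic liver. Sesn1 read -0.24 on the control, -0.64 on the diabetic and 0.60 on the combination array, with an outlier spot at -0.43 on the metformin array. It was the only gene of the 10 measured lower on the diabetic than on the control array (-0.39), and the combination array was 2.35-fold higher than the diabetic (1.23). Sesn2 read -0.62, -0.15, -0.40 and -0.29 in control, diabetic, metformin and combination liver. Its whole range was 0.47, and no comparison of Sesn2 reached 2-fold.

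Set against each other, diabetic liver was higher than control liver in most of the 10 genes. Of 8 measured, 7 were higher and 1 lower, with a median log2 difference of 0.79 against -0.05 over all 13475 genes measured. Phlda3, Mdm2 and Trp53inp1 were at least 2-fold higher and none was 2-fold lower, while 6.81% of all genes passed 2-fold upwards and 4.96% downwards. The genes were chosen with this comparison known, so nothing is read from their count. Spike-in scaling moved the median of all genes to 0.14, and the share of lower genes among those 2-fold apart from 42.2% to 26.2%.

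Metformin liver against diabetic liver had 7 of the 10 genes measured, of which 6 were higher. Trp53inp1 and Cdkn2b were at least 2-fold higher and none was 2-fold lower, where 10.7% of all 13900 genes were higher and 2.52% lower. The median of the 7 was 0.38, against 0.03 over all genes. The share of lower genes among those 2-fold apart was 19.0%, and it became 30.5% with quantile normalization and 8.5% with spike-in scaling, under which the median of all genes was 0.28.

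Combination liver against diabetic liver had 8 measured, 6 lower and 2 higher, with a median of -0.30 against 0.05 over all 14108 genes. Sesn1 was at least 2-fold higher and Cdkn2b at least 2-fold lower, where 4.11% of all genes were higher and 5.67% lower. With the 75th percentile of all probes as the scale, Sesn1 dropped below 2-fold (0.98) and Phlda3 and Cdkn1a joined Cdkn2b as 2-fold lower. That scaling moved the median of all genes to -0.20 in this comparison, and the share of lower genes among those 2-fold apart from 58.0% to 80.7%.

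Combination liver against metformin liver had 7 measured, of which 6 were lower, with a median of -0.83 against -0.02 over all 14363 genes. Cdkn2b, Cdkn1a and Phlda3 were at least 2-fold lower and none was 2-fold higher, where 10.6% of all genes were lower and 1.69% higher. Under the other scalings the share of lower genes among those 2-fold apart went from 86.3% to between 77.4% and 95.2%. Of 7 genes above background on all 4 arrays, 6 were highest on the metformin and 6 lowest on the control array. Of 12702 genes, 27.9% were highest on metformin and 26.7% lowest on control. The highest place of metformin rested on 0.07 over the diabetic array for Phlda3, and on 1 of 2 probes for Mdm2 and Trp53inp1. The diabetic array enters 3 of these 4 comparisons, so they are not independent of each other.

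**Figure D2:**
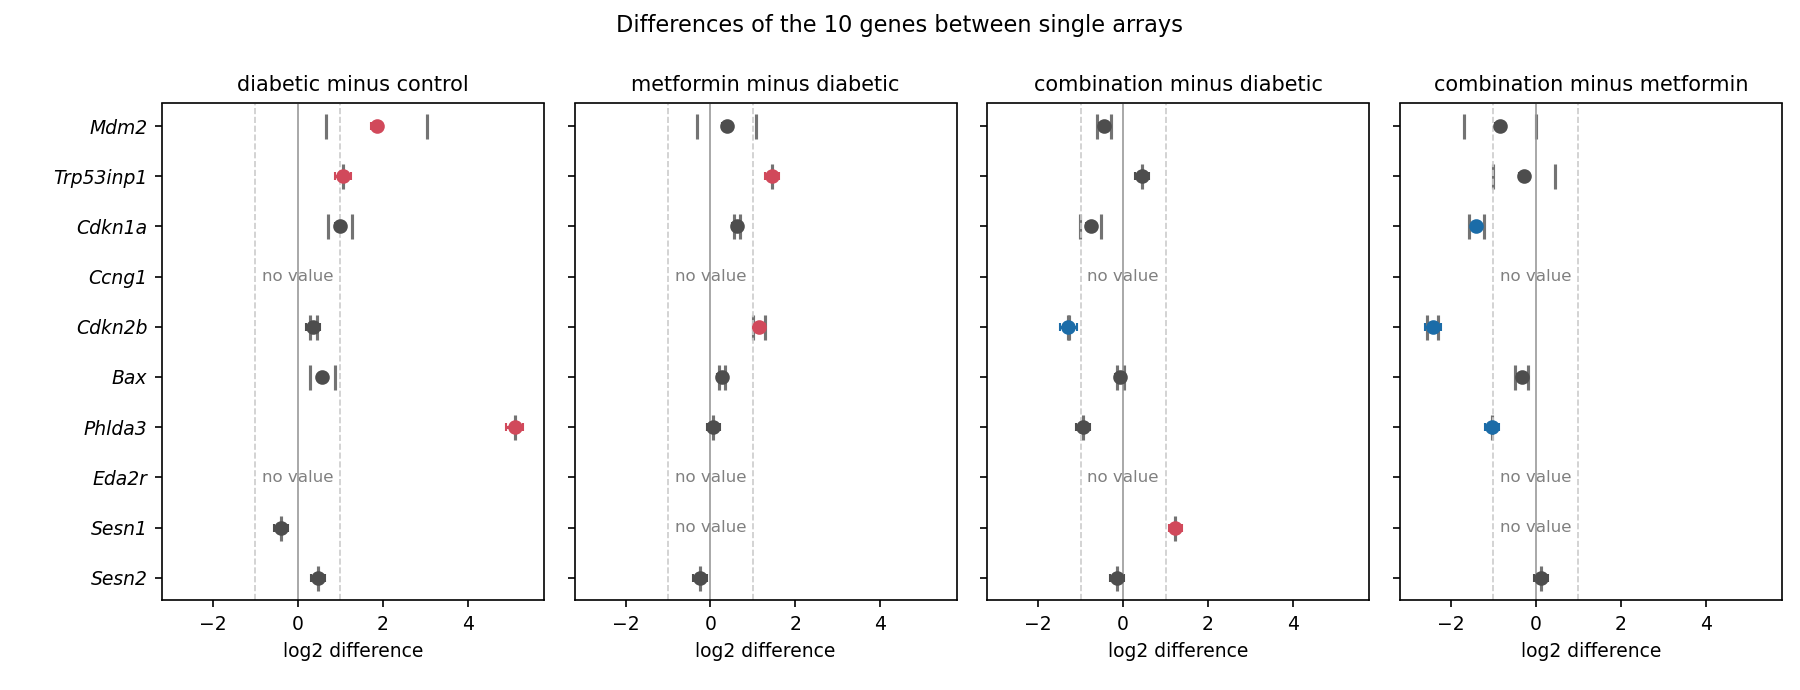
Log2 difference of each of the 10 genes in the 4 comparisons between single arrays. Circles are the mean over probes above background on both arrays, with the scanner software's error as the horizontal bar, vertical ticks are single probes, red and blue mark at least 2-fold higher and lower, and dashed lines mark 2-fold; the Mdm2 ticks at 0.66 and 3.05 show how far its probes lie apart.

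**Figure D3:**
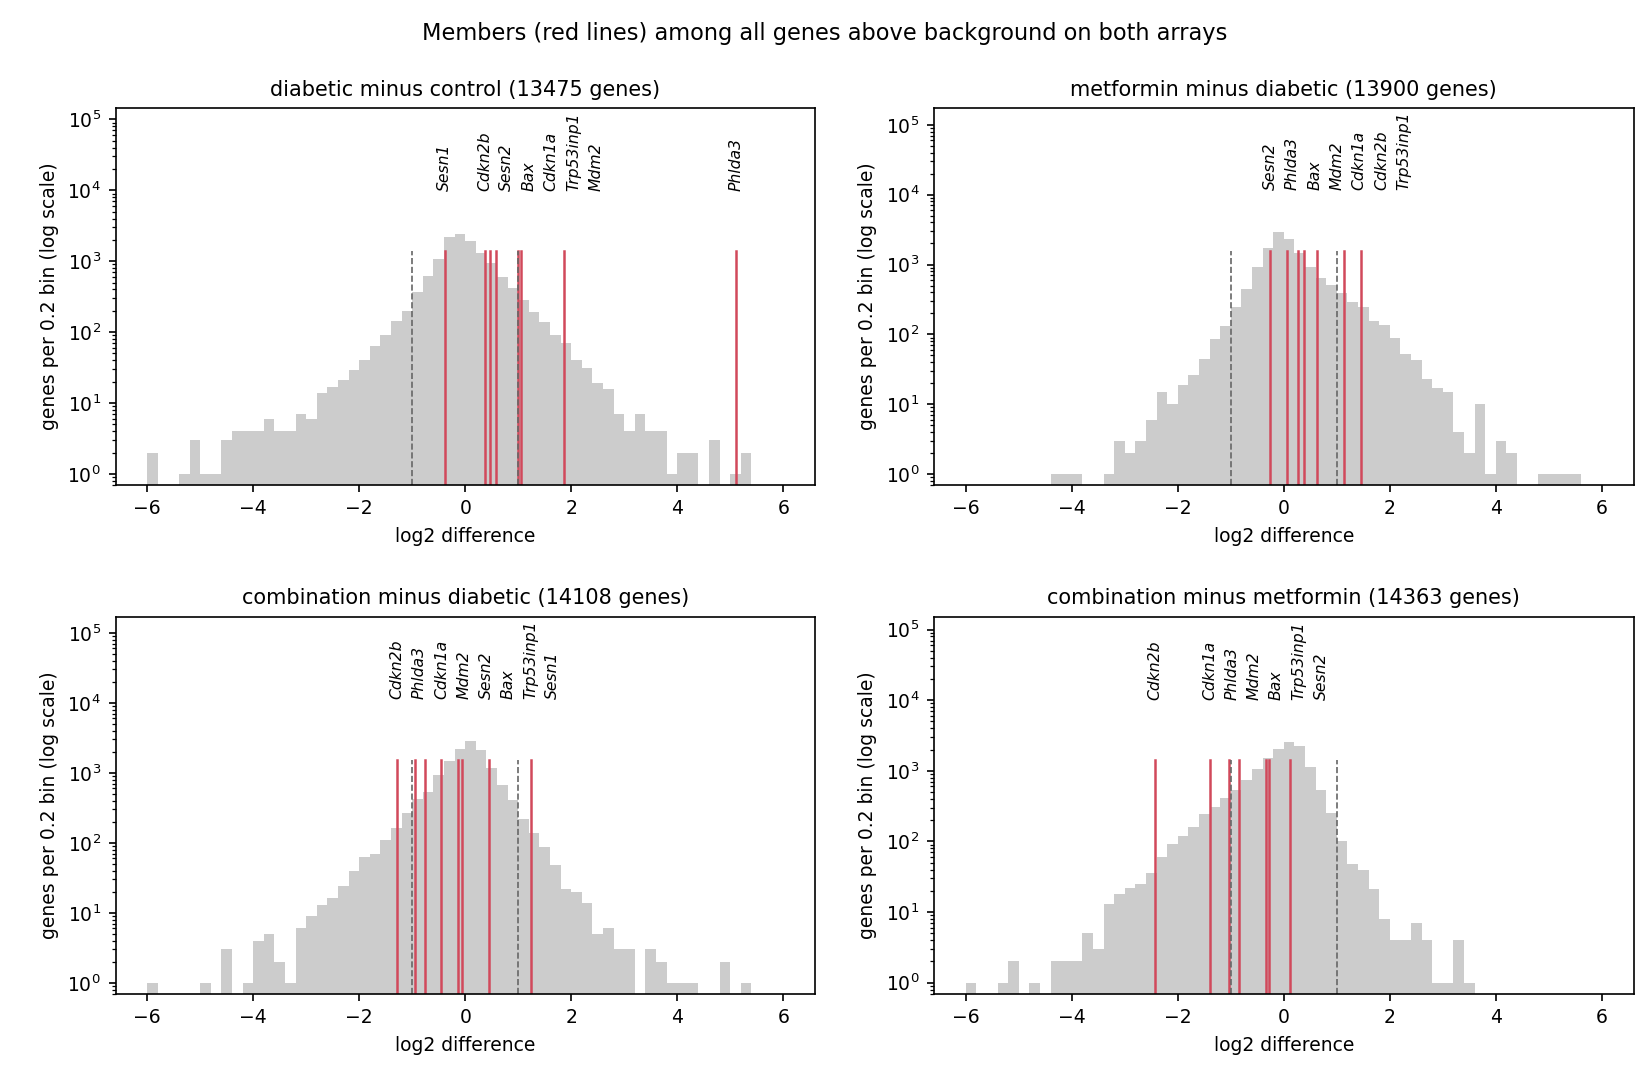
Number of genes per bin of log2 difference (log scale, grey) in the 4 comparisons, with the measured members as red lines and 2-fold as dashed lines. Phlda3 stands at 5.11 in the tail of diabetic minus control, and Cdkn2b at -2.43 in combination minus metformin; the other members lie between -1.40 and 1.86.

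Other genes of the p53 pathway were taken from a list of 27 that covers regulators, apoptosis, cell cycle, DNA repair and metabolism. The list was drawn up with earlier results of these data known, so it is no independent evidence of a direction. Between control and diabetic liver 24 of the 27 were measured, 19 higher and 5 lower, with a median of 0.52. At least 2-fold higher were Zmat3, an RNA-binding growth suppressor (2.16), the kinase gene Plk2 (2.04), Bbc3, which encodes the apoptosis inducer PUMA (1.81), Xpc, a DNA damage sensor (1.22), Pmm1 (1.21) and Tigar, a regulator of glycolysis (1.03). Plk3 was the 1 gene at least 2-fold lower (-1.38). The count of higher genes ran from 5 to 10 over the alternatives, with 10 under spike-in scaling.

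Zmat3 read -3.13 in the control, -0.98 with diabetes, -0.23 after metformin and -0.65 after the combination. Its order was that of the measured Trp53inp1 probe, with the combination above the diabetic array. The means of Mdm2, Cdkn1a, Bax and Phlda3 had the diabetic array above the combination. The control array was again the lowest and the metformin array the highest. Plk2 read -3.91, -1.87, -1.70 and -2.92 in the same order, lower on the combination than on the other arrays of the model. Bbc3 read -2.45, -0.64, -1.03 and -1.63, highest on the diabetic array. The mRNA of p53 itself, Trp53, read -0.69 in the control, -0.02 with diabetes, -1.04 after metformin and -0.66 after the combination. Trp53 was thus lowest on the metformin array, 1.02 below the diabetic array.

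In metformin against diabetic liver 25 of the 27 were measured with a median of 0.27. Of all genes 10.7% were at least 2-fold higher there and 2.52% lower. Plk3 (1.14), Pmaip1, which encodes the apoptosis inducer NOXA (1.12), Pmm1 (1.08) and Mdm4, the partner of Mdm2 (1.002), were 2-fold higher and Trp53 2-fold lower (-1.02). The count of higher genes ran from 1 to 5 over the alternatives, and Trp53 was under 2-fold with spike-in scaling. In combination against diabetic liver the median of 23 was -0.24. Mdm4 (1.04) and Plk3 (1.04) were 2-fold higher, and Gadd45a, a growth arrest and repair gene (-1.11), and Plk2 (-1.05) 2-fold lower. Of all genes 4.11% were higher there and 5.67% lower. Combination against metformin liver had 6 of 23 at least 2-fold lower and none higher, with a median of -0.42. Of all genes 10.6% were lower there and 1.69% higher. Pmaip1 (-2.06), Gadd45a (-1.59), Sfn (-1.32) and the apoptosome gene Apaf1 (-1.30) were furthest apart. The 4 medians kept their sign in all 10 alternatives.

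**Figure D4:**
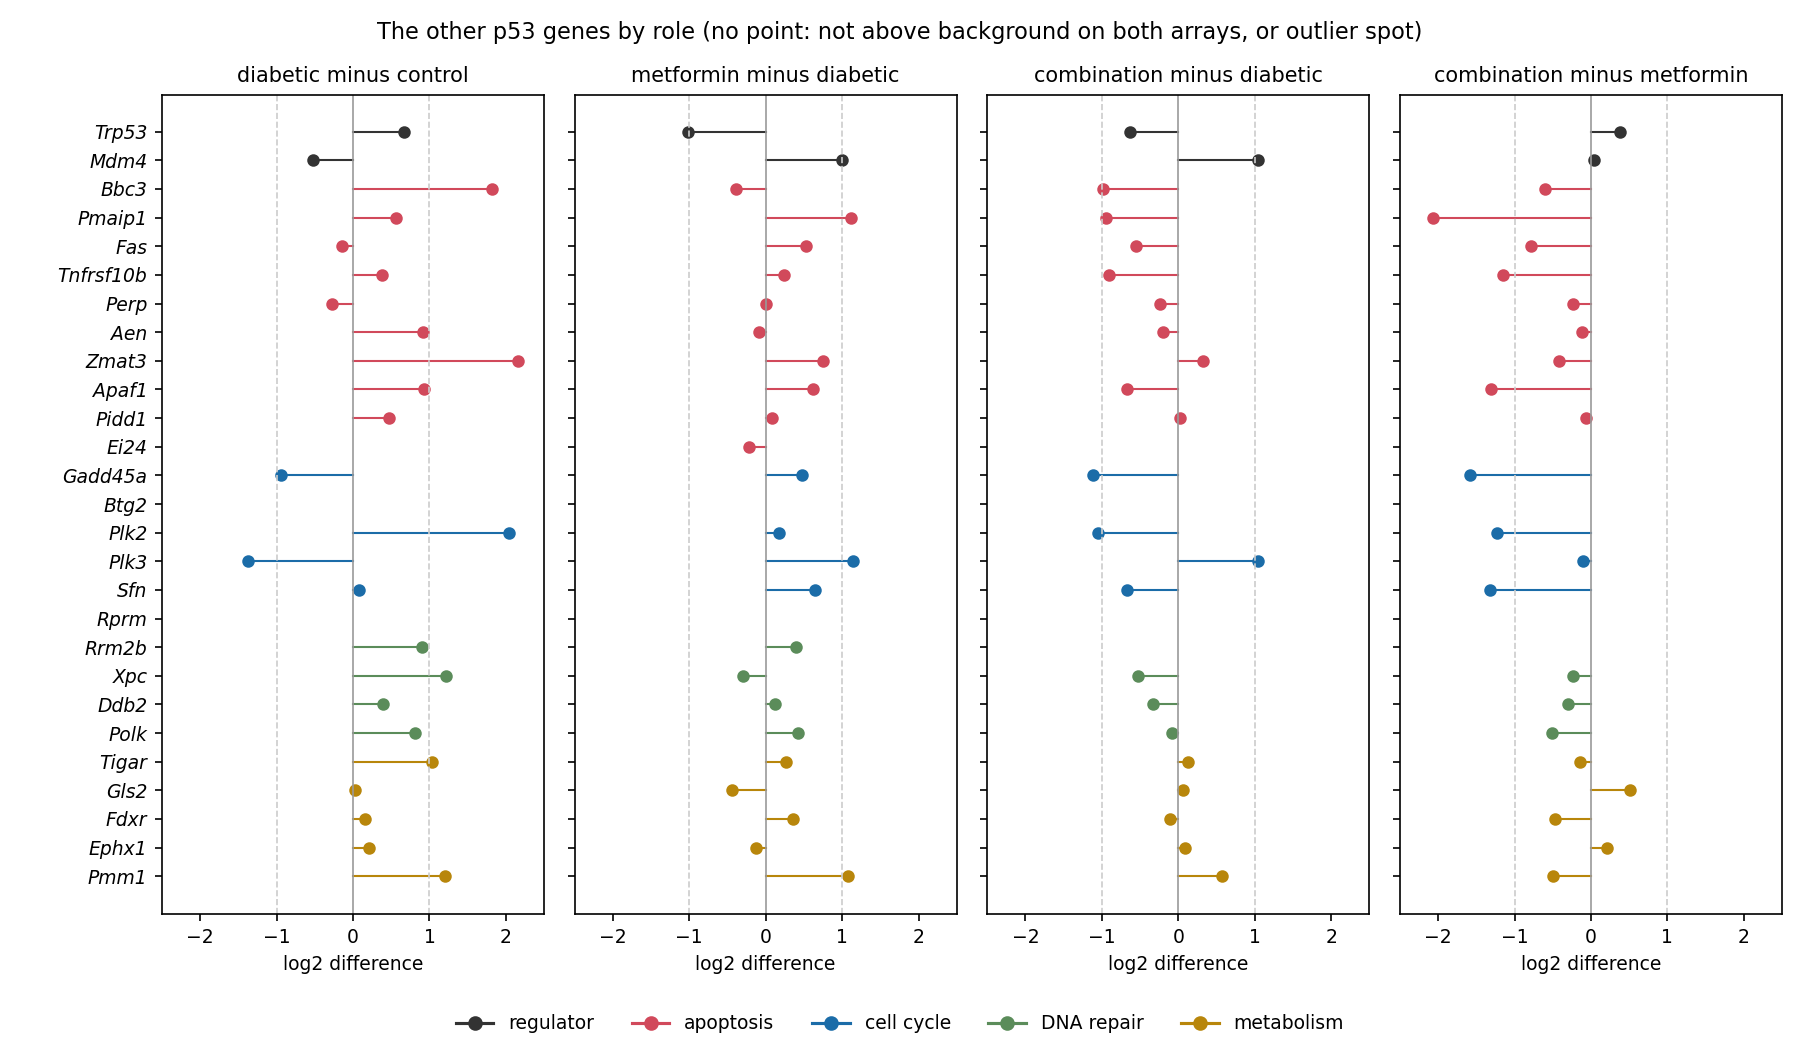
Log2 difference of the other 27 p53 pathway genes in the 4 comparisons, coloured by role, with dashed lines at 2-fold; genes without a point were not above background on both arrays or had an outlier spot. Zmat3, Plk2 and Bbc3 lie furthest right in diabetic minus control, and Pmaip1 and Gadd45a furthest left in combination minus metformin.

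Among the other CDK inhibitors and their partners, 16 genes in all, Cdkn1c followed the order seen for Trp53inp1. It encodes the CDK inhibitor p57 and read -2.17, -1.001, 0.11 and -0.24 in control, diabetic, metformin and combination liver. The diabetic array was above the control by 1.17 and the metformin array above the diabetic by 1.11. Cyclin E1 (Ccne1) and its kinase Cdk2 went the other way between control and diabetic, -1.85 and -1.06, and were higher on the combination than on the diabetic array by 1.63 and 1.04. Cdkn2a, the INK4 gene most used as a senescence marker, was not well above background on any array by either of its 2 probes. No gene of the list was 2-fold apart between the treated arrays, and the list median was 0.36, 0.35, 0.16 and -0.12 in the 4 comparisons in the order used above. It changed sign in 1 of 10 alternatives for diabetic against control and for combination against diabetic, and in 2 for the treated arrays.

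Proliferation genes, which CDK inhibitors hold back, had their own pattern. Between control and diabetic liver 4 of 13 measured were at least 2-fold lower and none higher, with a median of -0.48. The replication helicase genes Mcm6 (-3.88) and Mcm5 (-2.17), the proliferation marker Mki67 (-2.59) and cyclin A2 (Ccna2, -1.64) were furthest apart. On the metformin array 9 of 12 were at least 2-fold higher than on the diabetic, with a median of 2.69, led by Mcm6 (5.11), Mcm5 (3.73), Ccnb1 (3.26) and Mki67 (3.10). On the combination array 9 of 12 were at least 2-fold lower than on the metformin array, median -2.13, led by Mcm6 (-4.22), Birc5 (-3.17), Mki67 (-2.90) and Mcm5 (-2.44). Cdkn1a and Cdkn2b were thus highest on the array on which proliferation genes were highest too.

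Secreted and nuclear genes linked to senescence, 15 in all, did not move as the 10 genes did between control and diabetic liver. Of 11 measured 5 were at least 2-fold lower, with a median of -0.64: among them the chemokines Cxcl1 (-3.23) and Ccl2 (-1.87), and Il1a (-2.18). Gdf15, a stress hormone that p53 can induce, was the 1 gene 2-fold higher (1.53). Metformin against diabetic liver had 6 of 11 at least 2-fold higher, median 1.47, among them Ccl2 (4.00), Il1a (2.38) and Timp1 (1.94). Combination against metformin liver had 7 of 12 at least 2-fold lower, median -1.07, among them Ccl2 (-3.32), Timp1 (-1.92) and the nuclear lamina gene Lmnb1 (-1.47). The list pools secreted and lamina genes, so its counts and medians are no measure of more or less senescence. Between combination and diabetic liver the median was 0.19 with Il1a 2-fold higher (1.33), and it changed sign under the 75th percentile of all probes.

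TGF-beta ligands, receptors and targets were examined because TGF-beta induces Cdkn2b. Of 8 measured, Skil (-1.86) and Tgfbi (-1.33) were 2-fold lower on the diabetic than on the control array, and the median was -0.66. On the metformin array 5 were at least 2-fold higher than on the diabetic, median 1.31, among them Tgfb2 (1.85), Tgfbi (1.76), Ccn2 (1.47) and Tgfb3 (1.37). On the combination array Smad7 (1.68), Tgfbi (1.29) and Tgfb3 (1.15) were at least 2-fold higher than on the diabetic, median 0.91. The ligand gene Tgfb1 was the 1 gene of the 8 that was lower there (-0.75). A link between these genes and Cdkn2b was not tested. Between the treated arrays the median was -0.47 and Tgfb2 was 2-fold lower on the combination (-1.66).

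Genes of the integrated stress response, through which ATF4 can induce Sesn2 and Trib3, were mixed. From control to diabetic Trib3 was higher by 2.05, and Asns (-2.90), Chac1 (-2.67) and Atf3 (-2.22) were lower, with a median of -0.53 over 9 genes. Asns (2.78) and Atf3 (1.74) were 2-fold higher on the metformin than on the diabetic array. On the combination array Asns was higher than on the diabetic (1.14) and Ddit3 lower (-1.42). Between the treated arrays 4 of 10 genes were at least 2-fold lower on the combination and none was 2-fold higher: Fgf21 (-3.93), Asns (-1.70), Atf3 (-1.59) and Ddit3 (-1.10). The list median there, 0.06, changed sign in 5 alternatives.

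**Figure D5:**
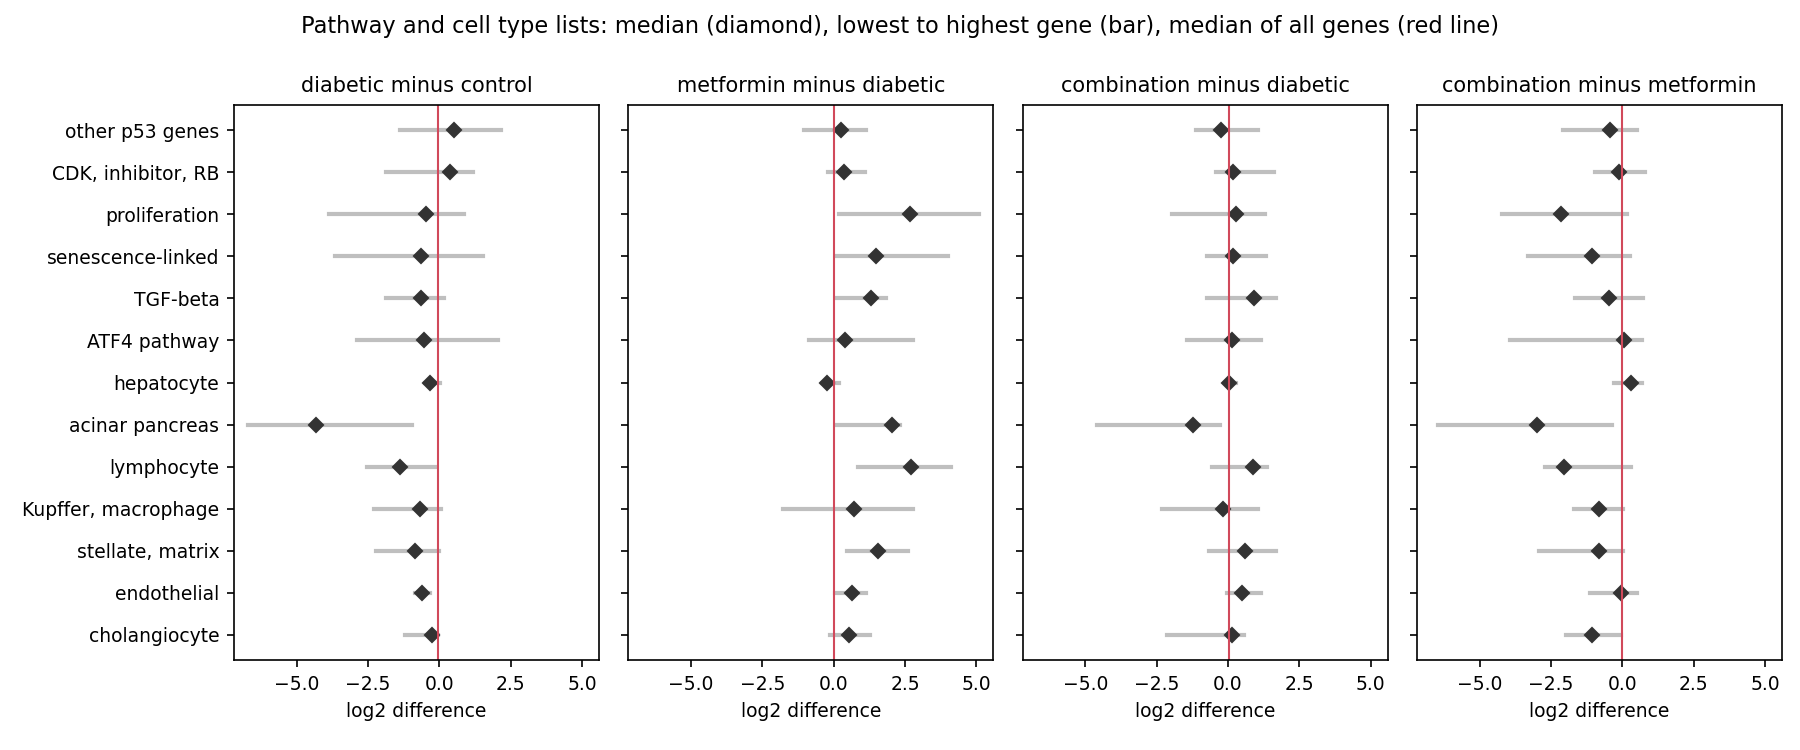
Median log2 difference (diamond) and range from the lowest to the highest gene (bar) of each pathway and cell type list in the 4 comparisons, with the median of all genes as a red line. The other p53 genes have a median of 0.52 in diabetic minus control, where proliferation genes have -0.48 and acinar pancreas genes -4.33; proliferation and lymphocyte genes have 2.69 and 2.73 in metformin minus diabetic.

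The arrays also differed in markers of cells other than hepatocytes, and in bulk tissue fewer cells of a type and less RNA per cell cannot be told apart. Acinar pancreas genes were at least 2-fold lower on the diabetic than on the control array in 12 of 13 measured (median -4.33), higher on the metformin than on the diabetic array in 11 of 13 (2.05), and lower on the combination array than on the metformin in 6 of 7 (-2.99). Their summed log2 level was 4.45, 2.07, 2.83 and 1.24 in control, diabetic, metformin and combination liver. The control array thus held the most pancreatic signal and the least of most of the 10 genes.

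Lymphocyte genes were 2-fold lower on the diabetic than on the control array in 5 of 9 (median -1.39), higher on the metformin than on the diabetic in 8 of 9 (2.73), and lower on the combination than on the metformin in 8 of 9 (-2.04). Their summed level was 0.26, -1.19, 1.42 and -0.41, highest on the metformin array, as were Cdkn1a and Cdkn2b. Of the B lineage markers, Cd79b and Jchain were above background on all 4 arrays, Ms4a1 on the metformin array alone, and Cd79a on none. Cd79b was 1.40 higher and Jchain 1.08 higher on the metformin than on the diabetic array. Only Cd79b of these 2 was highest on the metformin array. Jchain was highest on the control array, with a difference of -1.18 between metformin and control and 0.30 between combination and metformin. Proliferation genes had summed levels of 2.76, 2.30, 3.42 and 2.51, with the same order of arrays as the lymphocyte genes. Stellate and matrix genes had medians of -0.86, 1.54, 0.60 and -0.80 in the 4 comparisons. Kupffer cell and macrophage genes had medians of -0.68, 0.70, -0.19 and -0.81, but were split between metformin and diabetic liver. There 3 were at least 2-fold higher, Folr2 (2.77), Cd68 (1.02) and Adgre1 (1.004). The other 2 that were 2-fold apart were lower, Cd163 (-1.77) and Marco (-1.31). Endothelial genes had medians of -0.59, 0.63, 0.50 and -0.04, and cholangiocyte genes -0.25, 0.54, 0.13 and -1.06. Hepatocyte genes, none of them 2-fold apart, had summed levels of 6.15, 5.86, 5.61 and 5.90. The part of these cells in the levels of the 10 genes was not tested.

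For the 3 genes with the widest range over the arrays, the genes with the most similar profile were found by the distance between their 4 centred log2 levels, among 12702 genes above background on all arrays. Phlda3 was nearest to Slc22a27 (distance 0.94), an organic anion transporter family gene, Cyp4a14, a fatty acid hydroxylase gene (1.01), and Gm33272 (1.23). Slc22a27 read -5.22, -1.33, -0.37 and -1.90, and Cyp4a14 -3.73, 1.04, 1.66 and 1.46, in control, diabetic, metformin and combination liver. Both read lowest on the control array, which follows from their choice by nearness to Phlda3. Trp53inp1 was nearest to Dusp14 (0.09), Bbs7 (0.14) and Sema3c (0.16). Cdkn2b was nearest to Ppm1h, a phosphatase gene (0.15), Lpxn (0.21) and Cystm1 (0.30), of which Ppm1h read -2.21, -2.02, -0.88 and -3.21. With 4 points per gene many profiles lie close, and no shared function or control is read from the nearness.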

How the data were processed

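Total RNA of whole liver was labelled with Cy5 and hybridised to 4 one-colour Agilent arrays, 1 per group, on 1 slide with 1 scan. Each deposited scanner file holds red-channel spot intensity values, background-subtracted by Agilent Feature Extraction, version 11.5.1.1 per the file headers and 10.7 per the submitters' processing notes. The authors' value table holds log2 values (median 7.84 on each array), used as an alternative. They correlated with the scanner log2 signal at r of at least 0.9999 over probes above background, with their centring unknown. Their slope on that signal was 0.964, 0.999, 1.048 and 0.992 for control, diabetic, metformin and combination. The spread of the authors' values was thus stretched or narrowed by unequal amounts between arrays.

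Control spots and spots with an outlier mark were left out, and spots of a probe averaged. Above background means that 50% or more of a probe's remaining spots were well above background by the software's mark. Each array's log2 processed signal was scaled to its 75th percentile over the 24363 probes that passed this on every array, since dropping bright marked spots shifts the percentile over all probes unequally. Differences of a gene average its probes that passed on both arrays, and 2-fold apart is a log2 difference of 1 or more. Names came from matching transcript accessions to RefSeq (GRCm38.p6), which named 33767 of 56605 probes. No mean signal was in the files, so normexp with an offset of 50 was run on median signals. No spot was saturated. Calculations used Python 3.11.15, numpy 2.4.6, pandas 2.3.3, and limma 3.58.1 in R 4.3.3, and were tested on simulated data.

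Named were all 10 genes, up to 4 genes per list and comparison furthest apart among those at least 2-fold apart, and the 3 nearest profiles of the 3 genes of widest range; levels of some list genes were added after their values were seen, and some genes that the rule names are not reported here. Members and lists were chosen with earlier results of these data known. The number of arrays, 1 per group, limits the precision, and no test was made. The 10 alternatives covered scaling, filtering, background correction, probe choice and the authors' values.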

Additional observations from a re-analysis of the deposited data

Results flagged for a closer look

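Cdkn2b was the 1 gene of the 10 that lay at least 2-fold apart from the diabetic array in opposite directions on the treated arrays, 1.14 higher with metformin and 1.29 lower with the combination (a log2 difference of -1.29). Both of its probes gave both directions. On the combination array both probes read near the background limit. With 1 array each the difference was not tested.

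The outlier-marked spots of Ccng1, left out of the comparisons, read 2.03 above the control on the diabetic array and 2.10 above it on the metformin array. Those of the brightest Eda2r probe read 4.95 above the control on the diabetic and 5.47 above it on the metformin array, where the control spot was not well above background.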

How the results depend on the processing

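No paired analysis was possible because each group has 1 array, and no array could be left out for the same reason. Counts are of the 10 genes at least 2-fold apart, against 3 higher and 0 lower in diabetic against control, 2 and 0 in metformin against diabetic, 1 and 1 in combination against diabetic, and 0 and 3 in combination against metformin as reported. In diabetic against control the higher count ran from 2 to 4 over the alternatives: Trp53inp1 or Mdm2 was lost where it was 2, and Cdkn1a, Ccng1 or Eda2r was gained where it was 4. In combination against metformin the lower count was 4, with Mdm2, under the 75th percentile of all probes and the spike-in scale, and 2, without Phlda3, under the median scale. The count of higher genes in metformin against diabetic was 1 with quantile normalization, with outlier spots kept, with normexp and with the brightest probe, and 0 with the authors' values. In combination against diabetic the higher count was 0 with the 75th percentile of all probes and with genes above background on all 4 arrays. In the latter Sesn1 had no value, because of its outlier spot on the metformin array, so its 2-fold difference was not measured rather than lost. The lower count was 3 with that percentile and 0 with normexp. It was 2 with quantile normalization, with no background filter, with the authors' values and with the brightest probe. With the authors' values 1 gene, Sesn1, was higher in combination against metformin. Of 30 gene differences 10 were at least 2-fold. None of these 10 changed sign in the 10 alternatives, of which Sesn1 had a value in 9. Of the 10, 7 dropped below 2-fold in at least 1 alternative, while 4 other differences passed it in at least 1. The 3 that held were Phlda3 in diabetic against control (4.57 to 5.30) and Cdkn1a (-1.68 to -1.25) and Cdkn2b (-2.71 to -1.68) in combination against metformin. The spike-in scale moved the median of all genes to -0.30 in combination against metformin. Alternatives for the gene lists were added after the data were seen. Causes of these changes were not tested. Signal over background limits Eda2r, Cdkn2a and, on the combination array, Cdkn2b, while outlier spots limit Ccng1, Eda2r, Trp53inp1 and Sesn1.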
